A study of Mus musculus with 24 samples.

Results

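The sites described here are the 416 Oct4 peaks of asynchronous mouse embryonic stem cells that shared at least 1 bp with a Sox2 peak and shared no base with a peak of any of the 3 Klf4 lists of the same cell state. They were chosen by that rule from 3347 Oct4 peaks, and are called Klf4-free Oct4-Sox2 sites below. The other Oct4 peaks fell into 750 triple sites with Sox2 and Klf4, 951 Oct4-Klf4 sites without Sox2 and 1230 Oct4-alone sites with neither. The asynchronous Oct4, Sox2 and Klf4 values selected the sites, so they are given as a description and carry no test. The mitotic lists, the H3K27ac lists and the position of the sites did not enter the rule.

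Chromatin immunoprecipitation followed by sequencing was applied to the V6.5 line of mouse embryonic stem cells, of C57BL/6-129 strain. The asynchronous cells were not arrested, and the mitotic cells were arrested with nocodazole for 7 h and collected by shake-off. The stem cells had been kept on irradiated feeder cells with LIF and serum and were then passaged on gelatin with 2i, a pair of MEK and Gsk3 inhibitors. There was 1 asynchronous and 2 mitotic libraries each for Oct4 (Santa Cruz SC-8628) and Sox2 (R&D AF2018), 3 asynchronous and 3 mitotic libraries for Klf4 (R&D AF3158), and 2 asynchronous and 2 mitotic libraries for H3K27ac (ABCAM ab4729). One further Klf4 library came from a mixture of 10% stem cells with 90% neural progenitor cells. The labels do not say that libraries of a group came from separate cultures, and nocodazole holds cells in prometaphase by blocking microtubules.

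Oct4 is a POU-domain factor and Sox2 is an HMG-box factor, and the pair binds adjacent DNA half-sites in pluripotent cells. Klf4 is a zinc finger factor of GC-rich sequences that often lies near both in embryonic stem cells. H3K27ac is a histone mark of active enhancers and promoters, and mitotic chromosomes are largely transcriptionally silent while some factors and marks stay on them.

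Promoters were the only places where the DNA letters of a site could be read, and 6 of the 416 Klf4-free sites overlapped a RefSeq promoter window, which spans 250 bases before to 50 bases after a transcript start. The stretches that lie both before the start and inside the Oct4 peak are shown for 3 of them, because one holds a composite Sox-Oct motif, one holds a Sox motif and one was the strongest of these promoters without a match. All are from RefSeq, build GRCm38.p6, which has the coordinates of the deposited lists, mm10. The Fam169a stretch is chr13:97067075-97067286, the Fbxo27 stretch is chr7:28692619-28692848 and the Gm20609 stretch is chr10:71310495-71310744, all on the plus strand. Capitals mark the composite in Fam169a and CATTGT in Fbxo27, and Gm20609 has no capitals.
Fam169a: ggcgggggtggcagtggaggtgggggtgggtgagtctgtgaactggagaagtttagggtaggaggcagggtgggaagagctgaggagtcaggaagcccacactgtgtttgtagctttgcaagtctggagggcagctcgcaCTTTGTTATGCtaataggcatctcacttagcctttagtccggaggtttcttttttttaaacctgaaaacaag
Fbxo27: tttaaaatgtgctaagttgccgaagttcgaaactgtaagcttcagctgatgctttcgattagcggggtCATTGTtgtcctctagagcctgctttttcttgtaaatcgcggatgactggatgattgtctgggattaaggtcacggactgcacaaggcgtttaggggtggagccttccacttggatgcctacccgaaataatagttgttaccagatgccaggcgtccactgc
Gm20609: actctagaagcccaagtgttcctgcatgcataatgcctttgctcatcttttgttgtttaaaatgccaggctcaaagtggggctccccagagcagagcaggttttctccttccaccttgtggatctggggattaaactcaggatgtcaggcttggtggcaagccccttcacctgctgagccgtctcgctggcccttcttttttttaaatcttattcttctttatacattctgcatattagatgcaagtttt

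The motifs searched on both strands were the octamer ATGCAAAT, the Sox motif CATTGT, and a composite of CATTGT or CTTTGT, then any base, then ATGC. The composite was added after the Fam169a stretch had been read, and it can contain the Sox motif. Among 32815 distinct promoter windows of this length, 1.74% held the octamer, 12.6% the Sox motif and 0.238% the composite. Among the 265 windows that any Oct4 peak overlapped, the shares were 6.42%, 7.92% and 1.51%. The 6 Klf4-free sites overlapped 9 windows, of which 0 held the octamer, 2 the Sox motif and 1 the composite. The Sox match of the Fam169a window lay outside the Oct4 peak, and that of the Fbxo27 window lay inside it. A match describes letters in the window and is not a measured binding position.

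These promoter sites differed in what the other lists held. The Fam169a site had an Oct4 fold enrichment of 4.03 and a Sox2 fold of 3.87 in asynchronous cells, and in mitosis it had an Oct4 peak in library 2 of fold 5.97 and no peak in the other 3 Oct4 and Sox2 lists. Its H3K27ac folds were 12.7 and 11.6 in the asynchronous and 5.81 and 5.19 in the mitotic lists, so all 4 H3K27ac lists held it. The Fbxo27 site had a Sox2 peak in mitotic library 1, of fold 5.82, and no mitotic Oct4 peak. The site at Gm20609 was held by all 4 mitotic Oct4 and Sox2 lists and by no H3K27ac list.

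The whole set of lists bounds what can be compared. Fold enrichment is the authors' own value for each peak. It is used here within its list, except that the H3K27ac folds and widths of acetylated sites combine both asynchronous lists. Read depth is unknown, so yield can be judged by list length alone. The 16 lists from pure stem cells held 1246 to 47475 peaks. Oct4 mitotic library 1 had 1246 peaks against 5282 in library 2, and Sox2 mitotic library 2 had 1940 against 4537 in library 1. The titles of the Oct4 and Sox2 libraries and of Klf4 library 3 of each state start with the same code, whereas those of the asynchronous and mitotic H3K27ac libraries start with different ones, so for H3K27ac cell state and whatever the code marks cannot be told apart. Known stem cell loci carried the factors: Pou5f1, Sox2, Nanog and Esrrb had 6, 3, 1 and 4 Oct4 peaks within 20 kb.

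The Klf4-free Oct4-Sox2 sites lay on 20 chromosomes, and in median Oct4 fold they stood below the triple sites and above the other classes. Their median Oct4 fold in asynchronous cells was 6.05, with quartiles of 4.84 and 8.14 and a range of 2.57 to 23.5. The triple sites had a median of 6.55, the Oct4-Klf4 sites one of 5.11 and the Oct4-alone sites one of 5.08. Over all Oct4 peaks the median was 5.46. Median peak width was 323.5 bp, against 389.5 bp at triple sites and 254 bp at Oct4-alone sites. The median overlap with the Sox2 peak was 190 bp, and the median Sox2 fold was 6.13 against 6.78 at triple sites.

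The rule draws a sharp line through a graded measure. The smallest Sox2 overlaps inside it were 50 bp at Apbb2 and 91 bp at Palld, while Oct4 peaks at Rab10 and Mtf2 were left out with a Sox2 peak 4 and 54 bp away. On the Klf4 side, sites at Corin and Lifr were kept with a Klf4 peak 4 and 53 bp away, and sites at Stk39 and Acp5 were left out for overlaps of 1 and 15 bp. Most sites were far from this line: the median distance to the nearest asynchronous Klf4 peak was 23.4 kb, with quartiles of 5.52 and 66.4 kb, and 30 sites had one within 1 kb. Klf4 asynchronous library 2 had the most peaks, 21307, and 225 of the triple sites had Klf4 in that list alone, so without it the set would hold 641 sites.

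In mitotic cells the share of Klf4-free sites found again differed between the 2 libraries of each factor. Oct4 mitotic library 1 held 142 of the 416 sites (34.1%, 95% Wilson interval 29.7 to 38.8%) and library 2 held 347 (83.4%, 79.5 to 86.7%). Sox2 mitotic library 1 held 346 (83.2%, 79.3 to 86.5%) and library 2 held 212 (51.0%, 46.2 to 55.7%). For each factor the longer list held most of the sites and the shorter list far fewer. Over all Oct4 peaks the shares were 25.7% and 62.8% in Oct4 libraries 1 and 2. In Sox2 libraries 1 and 2 they were 41.9% and 24.7%. These intervals cover counting error only.

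Both mitotic Oct4 libraries held 140 of the 416 sites (33.7%, 29.3 to 38.3%), where all Oct4 peaks stood at 24.5%. At triple sites the share was 427 of 750 (56.9%), which was 23.3 percentage points higher (odds ratio 0.384, 95% interval 0.299 to 0.492, adjusted p = 4.87e-14, two-sided Fisher's exact test). At Oct4-alone sites it was 71 of 1230 (5.77%), far below the Klf4-free sites (odds ratio 8.28, 6.05 to 11.3, adjusted p = 2.10e-41, Fisher's exact test). The Klf4-free sites therefore lay between both classes. The gap to the triple sites was wider in the short list: with library 2 alone, the shares were 83.4% and 88.1% and the odds ratio 0.677 (0.482 to 0.951). With library 2 limited to 1246 peaks, the length of library 1, they were 38.7% and 49.9%, and with Klf4 taken only from library 3 the odds ratio for both libraries was 0.654. Regions of the same libraries are not replicates of a cell state, so each p covers counting over regions only, adjusted by Benjamini-Hochberg over the 8 tests of this kind.

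Sox2 in both mitotic libraries was found at 203 of the 416 sites (48.8%, 44.0 to 53.6%), against 23.2% of all Oct4 peaks, a background that mixes sites with and without Sox2. The triple sites, which also have Sox2 by rule, reached 454 of 750 (60.5%; odds ratio 0.621, 0.488 to 0.791, adjusted p = 0.000174, Fisher's exact test). The call depended on the lists used. In library 1 alone the shares were 83.2% and 83.9% (odds ratio 0.951, 0.689 to 1.31, adjusted p = 0.804, Fisher's exact test), and no difference was called. With library 1 limited to its 1940 strongest peaks, the length of library 2, its shares were 55.5% and 62.8%. With Klf4 taken only from library 3 the odds ratio for both libraries was 0.964, also not called.

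**Figure D1:**
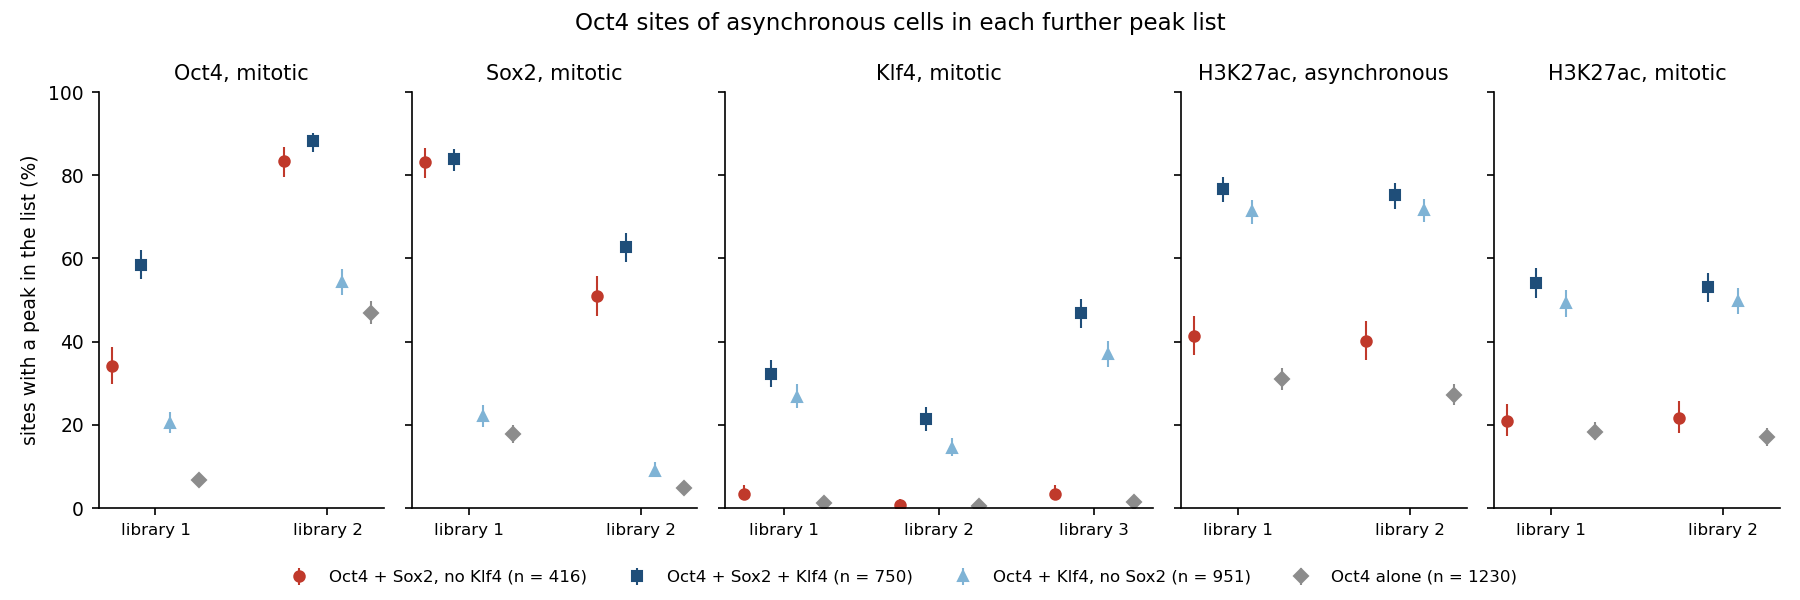
Share of Oct4 sites with a peak in each mitotic or H3K27ac list (vertical axis, percent), by library (horizontal axis) and class of site; points are shares and bars 95% Wilson intervals. The Klf4-free sites stand near the triple sites in the longer Oct4 and Sox2 lists (83.4% and 83.2%) and near the Oct4-alone sites in mitotic H3K27ac (20.9% and 21.6%).

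Counting lists site by site gave a spread with few empty sites. Of the 416 sites, 29 (6.97%) had a peak in none of the 4 mitotic Oct4 and Sox2 lists, 57 in 1, 106 in 2, 118 in 3 and 106 (25.5%) in all 4. Among triple sites 44.3% were in all 4 lists and 4.93% in none. Oct4-alone sites were in all 4 at 1.71% and in none at 48.4%. Sox2 lists are among the 4, and Oct4-alone sites lack asynchronous Sox2 by the rule, so this contrast is a description.

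**Figure D2:**
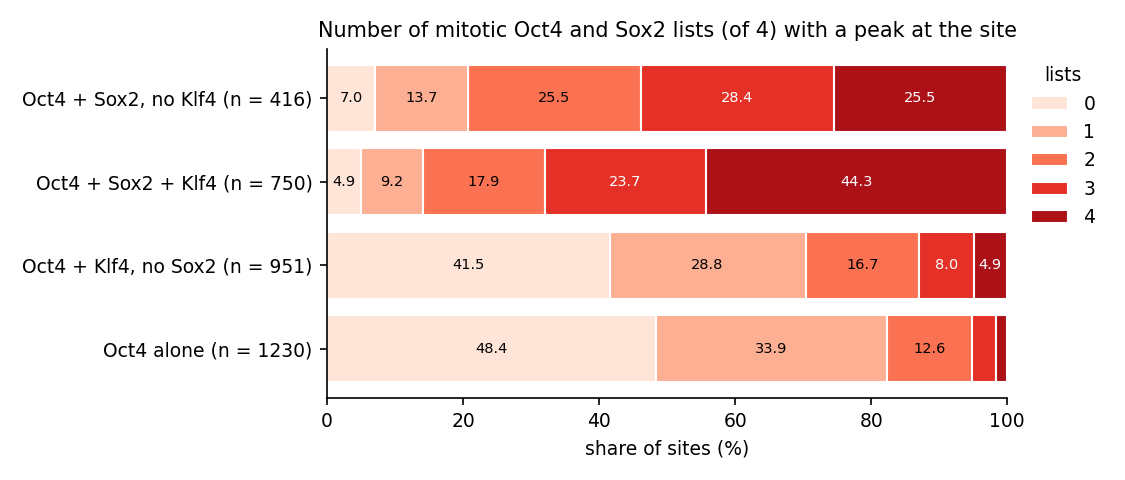
Share of sites (horizontal axis, percent) by the number of the 4 mitotic Oct4 and Sox2 lists with a peak there, for each class of Oct4 site (vertical axis). The Klf4-free sites have 25.5% in all 4 lists and 6.97% in none, whereas Oct4-alone sites, which lack asynchronous Sox2 by the rule, have 1.71% and 48.4%.

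Mitotic Oct4 and mitotic Sox2 went together within the Klf4-free sites. Sites with Sox2 in both mitotic libraries had Oct4 in both at 106 of 203 (52.2%), and the remaining sites at 34 of 213 (16%; odds ratio 5.75, 3.64 to 9.10, adjusted p = 1.05e-14, Fisher's exact test). Triple sites showed an odds ratio of 5.76 (4.18 to 7.93). Peak strength in asynchronous cells moved with this too: both mitotic Oct4 libraries held 12% of the 50 Klf4-free sites in the weakest quintile of Oct4 fold and 59.1% of the 115 in the strongest. Its part in the pairing was not tested.

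Among the 12 strongest Klf4-free sites that all 4 mitotic Oct4 and Sox2 lists held, 11 are named here by the nearest protein-coding gene, which gives a position and not a target. The Oct4 folds of these 12 ran from 13.5 to 23.5 in asynchronous cells, from 4.58 to 10.3 in mitotic library 1 and from 9.94 to 17.9 in mitotic library 2. Of the 12, 6 lay inside a gene and 7 had no H3K27ac peak in any list, as had 219 of all 416 Klf4-free sites (52.6%).

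The strongest lay 380 kb from Cyp7b1, an oxysterol hydroxylase and the nearest protein-coding gene (chr3:18623823-18624703). Its Oct4 fold was 23.5 in the asynchronous list and 6.67 and 14.0 in the mitotic lists. Its Sox2 folds were 11.9, then 7.28 and 8.14. H3K27ac was present in 3 of the 4 lists, at folds of 5.75 and 7.86 in asynchronous cells and 4.65 in mitotic library 1.

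Another lay inside Ube2h, the gene of a ubiquitin-conjugating enzyme (chr6:30272326-30273040). Its Oct4 folds were 16.3, 5.91 and 13.0 and its Sox2 folds 10.3, 17.5 and 10.8, in the order asynchronous, mitotic library 1 and mitotic library 2. It was 1 of 2 among the 12 with H3K27ac in all 4 lists, with asynchronous folds of 16.8 and 12.1 and mitotic folds of 11.9 and 12.4.

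Sites near Ahcy and Mboat1 had H3K27ac in asynchronous cells only. The Ahcy site, 5.37 kb from the gene of S-adenosylhomocysteine hydrolase, had Oct4 folds of 16.6, 4.58 and 10.7 and H3K27ac folds of 6.76 and 6.56. At the Mboat1 site, 66.7 kb from a gene of an acyltransferase, the Oct4 folds were 14.4, 7.29 and 11 and the H3K27ac folds 5.01 and 5.60. Neither had a peak in a mitotic H3K27ac list.

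The remaining 7 of the 12 held both factors in every list without any H3K27ac peak. One lay inside Ehmt1, which encodes the histone H3 lysine 9 methyltransferase GLP (chr2:24912167-24912576), with Oct4 folds of 18.4, 6.85 and 17.9 and Sox2 folds of 7.91, 8.67 and 6.67. A second was inside Fgf9, a fibroblast growth factor ligand (chr14:58101371-58101748), with Oct4 folds of 13.9, 7.52 and 13.7. Another was inside Wwc2, which encodes a WW-domain scaffold protein, with Oct4 folds of 14.2, 5.96 and 14.2. The site at the Gm20609 promoter, whose letters are shown above and whose nearest protein-coding gene is Cisd1 at 19.7 kb, had Oct4 folds of 14.3, 5.43 and 12.2.

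The last 3 of this group were at Ttc28, Dpm1 and Slc8a1. The site in Ttc28 had Oct4 folds of 13.9, 6.66 and 9.94. That in Dpm1, the catalytic subunit of dolichol-phosphate mannose synthase, had 13.5, 8.54 and 10.8, and it was the only one of the 12 with a mitotic Klf4 peak, of fold 4.33 in library 1. The site 568 kb from Slc8a1, a sodium-calcium exchanger, had the highest Sox2 folds of the 12 (chr17:82306377-82306689), at 21.1 in the asynchronous and 25.7 and 22.4 in the mitotic lists.

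**Figure D3:**
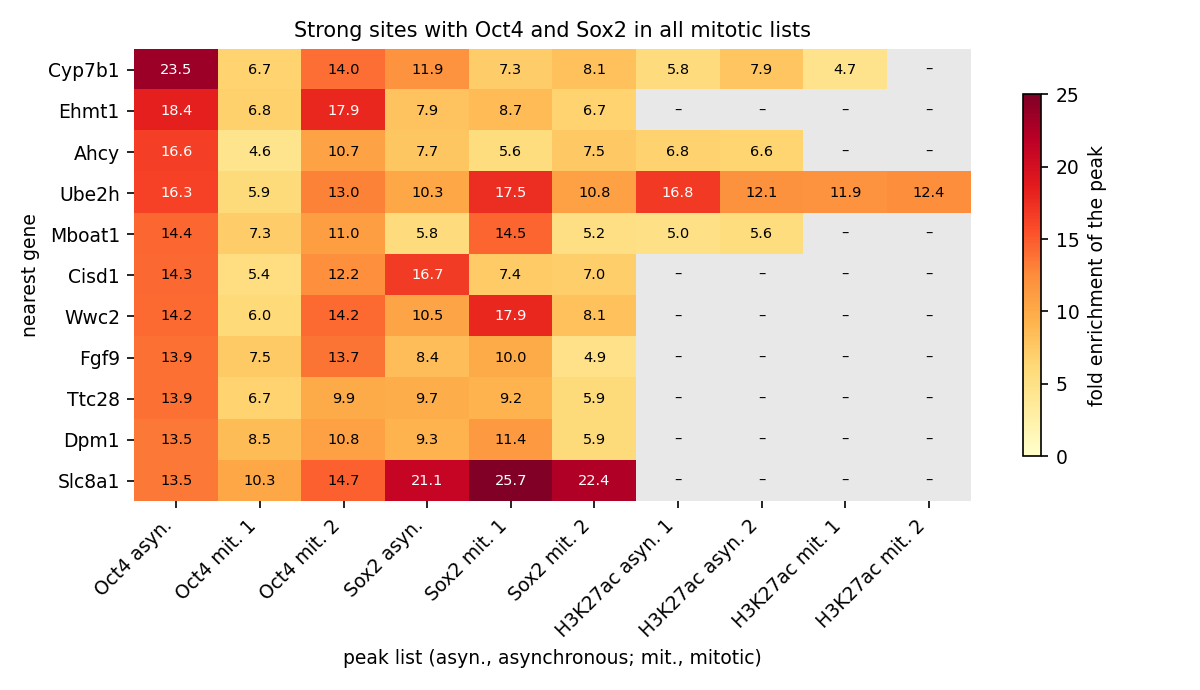
Fold enrichment (colour and printed value) of 11 of the 12 strongest Klf4-free sites held by all 4 mitotic Oct4 and Sox2 lists; rows are sites by nearest gene, columns are peak lists, and grey cells with a dash have no peak. The left 6 columns are filled at every site, and 7 of the 11 rows are empty for H3K27ac.

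At the other end, 29 sites had no mitotic Oct4 or Sox2 peak. Among the strongest of them, sites at Gm31255 and Btd, the gene of biotinidase, had Oct4 folds of 9.68 and 9.52. Like Btd, the sites at Fscb, Ift57 and Pced1b had no H3K27ac either. The Zfp383 site kept H3K27ac in all 4 lists, with asynchronous folds of 8.97 and 9.05 and mitotic folds of 3.49 and 3.50, and with neither factor listed in mitosis. The site in Mtrr, the gene of methionine synthase reductase, had H3K27ac at 5.70 and 4.92 in asynchronous cells only.

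Klf4 remained scarce at these sites in mitosis. Mitotic libraries 1, 2 and 3 held 14, 3 and 14 of the 416 sites (3.37%, 0.721% and 3.37%), and any of them held 26 (6.25%, 4.30 to 9.0%), where all Oct4 peaks stood at 27.5%. The rule removed Klf4 in asynchronous cells, so the low share is read as a description. Oct4-alone sites, which lack Klf4 by the same rule, had 37 of 1230 (3.01%), and triple sites 412 of 750 (54.9%). The mixture with neural progenitor cells had a peak at 0 of 416 sites, which allows a share of up to 0.721%. Its list held only 9 of all 3347 Oct4 peaks (0.269%) and 0.667% of triple sites, so this 0 does not set the sites apart. In that list 98.0% of peaks had a q above 0.05.

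Only 5 sites had Klf4 in 2 mitotic lists, and none had it in all 3. The site near Ticrr, a gene needed to start DNA replication, had Klf4 folds of 4.81 and 6.33 in mitotic libraries 1 and 3, and strong H3K27ac of 23.6 and 20.2 in the asynchronous and 9.85 and 8.72 in the mitotic lists. At the site nearest to Cbln4 the Klf4 folds were 4.78 and 5.26, and an asynchronous Klf4 peak ended 0.07 kb away. A site in Zfp982 had 3.94 and 9.52 in libraries 2 and 3, and one in Lrrc36 had 4.52 and 3.98. The site nearest to Cr2 had low folds in every list that held it: 2.57 for asynchronous Oct4, 2.06 and 4.03 for mitotic Klf4, and 2.56 to 2.95 for H3K27ac.

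With Klf4 taken from all 3 asynchronous lists, H3K27ac was less frequent at the Klf4-free sites than over all Oct4 peaks. Asynchronous libraries 1 and 2 held 172 (41.3%) and 167 (40.1%) of the 416, and both held 149 (35.8%, 31.4 to 40.5%), below the 49.4% of all Oct4 peaks. Mitotic libraries 1 and 2 held 87 (20.9%) and 90 (21.6%), and both held 69 (16.6%, 13.3 to 20.5%), below the 31.0% of all Oct4 peaks. Within each state the interval of one H3K27ac library covered the share of the other, unlike those of the Oct4 and Sox2 libraries. The shares depended on the Klf4 lists and on the overlap. With Klf4 taken only from library 3 they were 52.2% and 30.6% in both asynchronous and both mitotic libraries. At that setting they were not below all Oct4 peaks in asynchronous cells (49.4%) and were close to them in mitotic cells (31.0%). With a 50% overlap they were 13.0% and 10.4%, and the share of all Oct4 peaks at that overlap is not given here.

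Triple sites had far more of the mark. Both asynchronous H3K27ac libraries held 541 of 750 triple sites (72.1%), 36.3 percentage points above the Klf4-free sites (odds ratio 0.216, 0.167 to 0.279, adjusted p = 6.10e-33, Fisher's exact test). In mitotic cells the triple sites stood at 359 of 750 (47.9%), a gap of 31.3 points (odds ratio 0.217, 0.161 to 0.291, adjusted p = 1.99e-27, Fisher's exact test). Each of the 4 H3K27ac libraries alone gave an odds ratio between 0.215 and 0.244. The gap was as large among sites of equal Oct4 strength: within quintiles of Oct4 fold the pooled odds ratio was 0.22 in both states. Oct4-Klf4 sites, which lack Sox2, had H3K27ac in both asynchronous libraries at 68.0% and in both mitotic libraries at 44.5%, with no test.

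Against Oct4-alone sites the difference was small. Asynchronous H3K27ac stood at 316 of 1230 Oct4-alone sites (25.7%), 10.1 points below the Klf4-free sites (odds ratio 1.61, 1.27 to 2.05, adjusted p = 0.000149, Fisher's exact test). That call ended, and the direction turned, when a shared peak had to cover 50% of the shorter one (13.0% against 16.3%, odds ratio 0.765, adjusted p = 0.124, Fisher's exact test). In mitotic cells the shares were 16.6% and 15.2%, a difference of 1.38 points with an interval from -2.51 to 5.70 that does not exclude zero (adjusted p = 0.531, Fisher's exact test). It was called without H3K27ac mitotic library 1 (odds ratio 1.35, adjusted p = 0.0449, Fisher's exact test) or without Klf4 asynchronous library 2 (1.41, adjusted p = 0.00425).

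**Figure D4:**
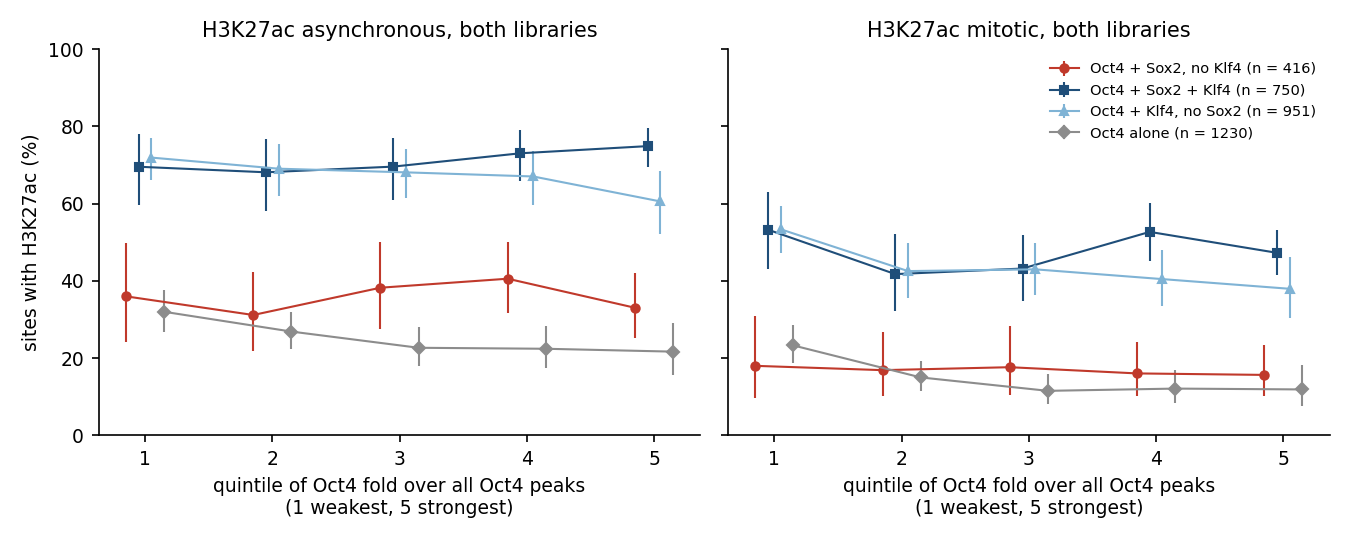
Share of sites with H3K27ac in both libraries (vertical axis, percent) by quintile of asynchronous Oct4 fold over all Oct4 peaks (horizontal axis), with 95% Wilson intervals. In the strongest quintile the Klf4-free sites stand at 33.0% in asynchronous and 15.7% in mitotic cells, against 74.9% and 47.3% for triple sites.

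The H3K27ac share was no higher at the strongest than at the weakest Klf4-free sites. In the weakest quintile of Oct4 fold 36% of 50 sites had H3K27ac in both asynchronous libraries, and in the strongest 33.0% of 115. Of all 416 sites, 219 (52.6%) had no peak in any of the 4 H3K27ac lists and 61 had one in all 4. From the 219 sites the nearest H3K27ac peak lay a median of 13.8 kb away, 50 of them had one within 1 kb and 118 had none within 10 kb. At 52 of these 219 sites all 4 mitotic Oct4 and Sox2 lists had a peak, a share similar to the 106 of all 416 sites (25.5%).

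H3K27ac and mitotic binding were compared within the Klf4-free sites, in tests added after the lists had been seen and adjusted over 8 of them. Oct4 in both mitotic libraries was found at 55 of the 149 acetylated sites (36.9%) and 85 of the other 267 (31.8%), a difference that was not called (odds ratio 1.25, 0.823 to 1.91, adjusted p = 0.440, Fisher's exact test). Its odds ratio was 0.979 without Oct4 mitotic library 1, and 1.42 and called without Klf4 asynchronous library 2 (adjusted p = 0.0465, Fisher's exact test). With Klf4 taken only from library 3 the Oct4 odds ratio was 1.44 and also called (adjusted p = 0.0114, Fisher's exact test). Sox2 in both was found at 58.4% of acetylated and 43.4% of the other sites (odds ratio 1.83, 1.22 to 2.74, adjusted p = 0.00829, Fisher's exact test). The Sox2 call was lost without mitotic library 2 (odds ratio 1.27, adjusted p = 0.659, Fisher's exact test), with a 50% overlap (1.03) and with −log10 q of at least 5 (1.27).

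Acetylated Klf4-free sites were less often in the mitotic H3K27ac lists than acetylated triple sites, a call that did not hold under every setting. Of the 149, 61 (40.9%, 33.4 to 49.0%) had H3K27ac in both mitotic libraries, against 350 of 541 (64.7%; odds ratio 0.378, 0.261 to 0.548, adjusted p = 7.43e-07, Fisher's exact test). The share was 63.5% at acetylated Oct4-Klf4 sites and 50.3% at acetylated Oct4-alone sites, with no test. The asynchronous H3K27ac peaks of acetylated Klf4-free sites were also weaker and narrower than those of acetylated triple sites. With both asynchronous H3K27ac lists combined for each site, the median fold was 10.3 against 15.3 and the median width 1505 against 2421 bp. Among sites in the same quintile of H3K27ac fold the odds ratio rose to 0.631 (0.405 to 0.985, exact conditional p = 0.0503). Within quintiles of width it was 0.613 (exact conditional p = 0.0371). Neither p-value was adjusted, so no call is made for these fits. With a 50% overlap the odds ratio was 0.522 and not called (adjusted p = 0.0549, Fisher's exact test). Only 2 sites had H3K27ac in both mitotic and no asynchronous library, among them one at Gm20385 at 5.47 and 4.54.

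The Klf4-free sites were mostly distal. Of the 416, 194 (46.6%) lay inside a protein-coding gene, and 16 (3.85%, 2.38 to 6.16%) lay within 1 kb of either end of one, its start or its stop, below the 10.6% of all Oct4 peaks. Triple sites had 48 of 750 (6.40%), and the difference was not called (odds ratio 0.585, 0.328 to 1.04, adjusted p = 0.0919, Fisher's exact test). It was called without Klf4 asynchronous library 2, at an odds ratio of 0.580. The median distance to a transcript start was 27.2 kb, with quartiles of 9.26 and 71.7 kb, against 22.0 kb at triple and 14.1 kb at Oct4-Klf4 sites. Transcript starts were missing for chromosome 18, whose sites have no distance, and for some genes elsewhere, so these distances are upper limits. A triple site lay within 10 kb of 9 of the 416 (2.16%), close to the 2.60% of Oct4-alone sites and below the 4.63% of Oct4-Klf4 sites, with no test.

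**Figure D5:**
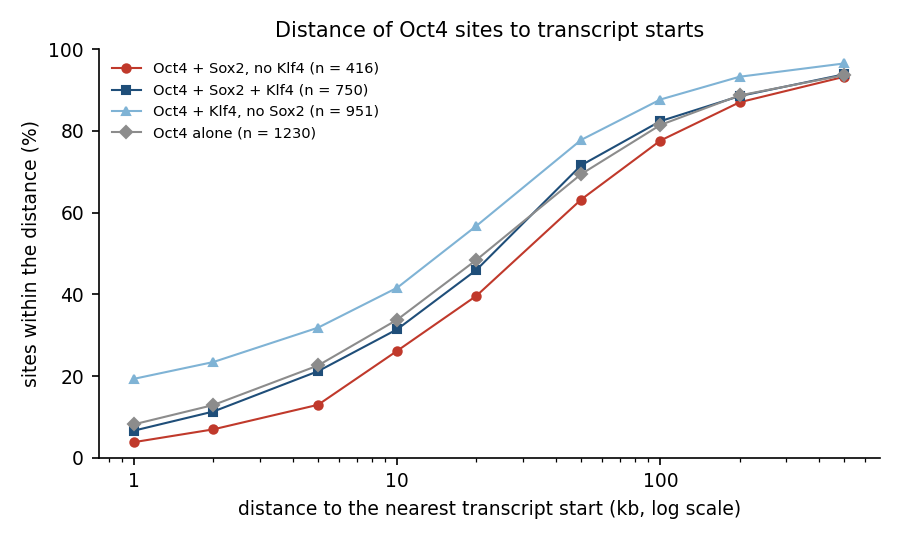
Cumulative share of sites (vertical axis, percent) within a distance of the nearest RefSeq transcript start (horizontal axis, kb, log scale), for each class of Oct4 site. Within 5 kb lie 13.0% of the Klf4-free sites and 21.2% of the triple sites. Sites on chromosome 18, which has no transcript start here, count as outside every distance, so the shares are lower limits.

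The genes around the Klf4-free sites were read from 5 lists of 152 genes in all. Of all 21887 protein-coding genes, 383 (1.75%) had a Klf4-free site within 20 kb. No gene of the core and naive pluripotency list did, 0 of 36, a count that cannot be told apart from that 1.75%. Of the same 36, 13 had a triple site, 12 an Oct4-Klf4 site and 10 an Oct4-alone site. Over all genes those shares were 3.18%, 4.92% and 5.56%. The counts for the other lists were 2 of 22 primed and formative genes, 1 of 30 germ layer regulators, 5 of 34 signalling genes and 2 of 30 chromatin regulators. In the same order, triple sites lay near 1, 1, 9 and 11 genes, Oct4-Klf4 sites near 3, 1, 4 and 6, and Oct4-alone sites near 3, 2, 5 and 5.

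Among the signalling genes, a site 0.96 kb from Lefty1, which encodes an antagonist of Nodal, had an Oct4 fold of 17.8, then 6.17 and 8.35 in the mitotic lists (chr1:180933611-180934062). Its Sox2 folds were 8.19 and 4.66, with no peak in mitotic library 2, and H3K27ac was present only in asynchronous cells at 3.67 and 6.47. The site inside Lifr, the gene of the LIF receptor, had Oct4 folds of 11.7, 8.66 and 16.4 and Sox2 folds of 12.7, 13.4 and 13.3 (chr15:7115678-7116179). Its H3K27ac folds were high, at 30.3 and 32.4 in the asynchronous lists and 13.4 and 12 in the mitotic ones, and it is also the site with a Klf4 peak 53 bp away.

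The other signalling sites had little or no H3K27ac. A site 5.34 kb from Skil, a repressor of TGF-beta signalling, had an asynchronous Oct4 fold of 11.3 and a mitotic one of 8.95 in library 2 only. The site in Igf1r, the insulin-like growth factor receptor, had 10.2 and 4.84 in the same lists, and the site 2.98 kb from Tcf7, a Wnt-responsive factor, had 9.29 and 4.64. In all 3, mitotic Oct4 library 1 held no peak.

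The primed, germ layer and chromatin genes had mostly weaker sites, apart from Ehmt1 above. At Otx2, a factor of primed pluripotency and forebrain, the Oct4 fold was 4.62 and H3K27ac was found in both asynchronous lists, at 4.26 and 3.66, and in no mitotic list. The site 7.76 kb from Lef1, a Wnt effector, had an Oct4 fold of 3.78 and no mitotic Oct4 peak. The site inside Pax6, a neural and eye regulator, had Oct4 folds of 4.40 and 4.30 in asynchronous cells and mitotic library 2, with no H3K27ac in any list.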

How the data were processed

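The 17 deposited peak lists were used as they stand, 1 per library, and 7 input libraries have no list here. Per the submitters' processing notes, reads were handled with cutadapt 1.8.1, Bowtie2 2.2.5, deepTools 2.3.6 and MACS2 2.1.1 on mm10. The role of each setting is not given in the sources used here. The authors' files give each peak a fold enrichment (a ratio) and a −log10 p and −log10 q value. In every list the −log10 p was at least 5, and peak names skip numbers (the asynchronous Oct4 list holds 41.2% of its own), so peaks had been removed after calling, by steps not given in the sources used here. A site without a peak is therefore only a site not listed. Libraries are numbered by title, and the peak names in the mitotic Oct4 lists number them the other way round.

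An overlap was 1 bp or more. Shares have 95% Wilson intervals, which cover counting error only, and the upper limit for a count of 0 takes 3 sites. Fisher's exact test, two-sided and with Woolf intervals, was run between classes of Oct4 peaks. Differences have Newcombe intervals, and p-values were adjusted by Benjamini-Hochberg over 8 planned and, apart, 8 added tests and called at an adjusted p under 0.05. Fits within 5 quintiles used the Mantel-Haenszel odds ratio and an exact conditional test. Python 3.11.15, pandas 2.3.3, scipy 1.17.1 and statsmodels 0.14.6 were used, and the counting and the tests were tested on simulated data. Genes, transcript starts and promoter letters came from the RefSeq tables of GRCm38.p6, and all 152 listed genes matched. The genome sequence was not used here, so sites outside promoters have no letters.

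Sites were named by the nearest protein-coding gene. The named sites were the 12 of highest Oct4 fold in all 4 mitotic Oct4 and Sox2 lists, the 8 of highest fold in none, sites within 20 kb of a listed gene, those with Klf4 in at least 2 mitotic lists, those with H3K27ac in mitotic lists only, and the 5 strongest in all 4 lists without H3K27ac. Some sites that this rule names are not reported here. The promoter sites were named after their values were seen. The sites, gene lists and tests were chosen with earlier results of these data known. The alternatives were a 50% overlap, −log10 q of at least 5, Klf4 library 3 alone, whose title starts with the same code as the Oct4 library's, no Klf4 peak within 1000 bp, readouts within 500 bp, lists of equal length, strata of Oct4 fold or width, and each library left out.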

Additional observations from a re-analysis of the deposited data

How the results depend on the processing

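The Oct4, H3K27ac and Sox2 differences from triple sites, and the Oct4 difference from Oct4-alone sites, kept their direction under every alternative run, and their calls except for Sox2. With Klf4 taken only from asynchronous library 3, the set grew to 889 sites, of which 22.5% had Klf4 in a mitotic list, the Sox2 odds ratio against triple sites was 0.964, and that of mitotic H3K27ac against Oct4-alone sites was 1.66 and called. With −log10 q of at least 5, 176 sites remained, 1.70% of them with mitotic Klf4, the odds ratio of mitotic Oct4 at acetylated against other sites was 0.952, and 2 of the 12 strongest sites stayed in their set. With a 50% overlap the odds ratios of asynchronous and mitotic H3K27ac against Oct4-alone sites turned to 0.765 and 0.902, and with no Klf4 peak within 1000 bp the mitotic one was 0.946 while the gene-end comparison was called at 0.429. Mitotic Klf4 stood at 3.12% of sites with lists of equal length, 8.41% within 500 bp and 1.20% in at least 2 lists. The cause of these changes was not tested. Leaving out each library gave odds ratios of 0.570 to 0.951 for Sox2 against triple sites, 1.04 to 1.41 for mitotic H3K27ac against Oct4-alone sites and 0.580 to 0.635 for gene ends, with 435 to 641 sites and 3.61 to 11.7% of them with mitotic Klf4. With single libraries left out, the odds ratio of mitotic Oct4 at acetylated sites ran from 0.979 without Oct4 mitotic library 1 to 1.42 without Klf4 asynchronous library 2. It was 1.44 and called with Klf4 taken only from library 3. No paired analysis was possible because the results are overlap counts with no fit across samples, and equal numbers mark no shared material. Read depth is unknown, and a short list, such as that of Oct4 mitotic library 1, limits every share that needs both libraries.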
